A study of Canis lupus familiaris with 10 samples.

Results

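Reactive gliosis was examined through 10 genes in the glaucomatous canine retina: the intermediate filament genes GFAP, VIM and NES, the signaling genes OSMR, STAT3 and SOCS3, the secreted proteins CHI3L1, LCN2 and SPP1, and the surface receptor CD44. All probe sets of the array whose annotation names one of these genes and no other were taken, which gave 20 of 42924 probe sets. The array annotation names 15115 genes in this way, and every one of the 10 genes had at least 1 probe set. STAT3 had 4 probe sets, GFAP and CD44 had 3 each, CHI3L1, SPP1 and SOCS3 had 2 each, and VIM, NES, LCN2 and OSMR had 1 each.

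The data come from neural retina of 10 dogs, each hybridized to 1 Affymetrix Canine Genome 2.0 array. The glaucoma group held Shiba Inus aged 5 and 14 years, Basset Hounds aged 5 and 7 years and a Dalmatian aged 9 years, all clinic patients with primary glaucoma, a closed irido-corneal angle and high intraocular pressure, treated topically with latanoprost and brinzolamide. The healthy group held 5 Beagles aged 4 years, with open angles and no eye findings. Breed and age therefore cannot be told apart from disease and its medication, and the study's own listing of the animals gives other ages than the labels for the older Shiba Inu and the Dalmatian.

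When retinal tissue is injured, Müller glia and astrocytes become reactive: they build up intermediate filaments, change their surface receptors and secrete proteins that act on neurons, vessels and immune cells. GFAP is the standard sign of this state, because Müller glia of healthy retina make very little of it. One well-known route runs from cytokines of the interleukin-6 family, such as oncostatin M, through their receptors to the transcription factor STAT3, which is restrained by the feedback inhibitor SOCS3. Several of these genes are not confined to glia, and macrophages and microglia are known sources of CHI3L1, SPP1 and CD44.

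Values are log2 of the RMA intensity, a background-subtracted and array-normalized hybridization signal, so a difference of 1 is a 2-fold change. A probe set is called expressed here when its log2 value exceeded 7 in at least 2 of the 10 retinas, which 18416 of the 42924 did. The test was limma, which fits a linear model to every probe set and steadies each variance with those of the rest, and a difference was called at an adjusted p under 0.05. Median intensity lay between 77.1 and 80.7 on all arrays, and precision was limited by the number of arrays. As a measure of RNA integrity, 3' over 5' signal of all actin and GAPDH controls came to 1.57 ± 0.11 in glaucoma and 1.59 ± 0.25 in healthy retina on the log2 scale (SD, n = 5 each), with p = 0.802 in a two-sided exact permutation test. This averages a pair of control series that differed between the groups in opposite directions, 0.94 against 1.19 in one (exact permutation p = 0.0556) and 1.97 against 1.84 in the other (exact permutation p = 0.421). As markers of retina, 8 of 8 rod photoreceptor genes and 13 of 14 Müller glia genes on the array were expressed. A pair of retinas stood apart. The summed intensity of the rod genes was 5144 in the Shiba Inu aged 5 years, against 34460 to 62250 in the other glaucomatous and 46430 to 68380 in the healthy retinas. The sum of 14 pigment epithelium genes was 61390 in this retina and 40610 in healthy replicate 4. It was 10040 to 29850 in the other glaucomatous retinas and 6162 to 8215 in the other Beagles, so this signal moved with the group as well. Results without the pair are also given for GFAP, STAT3, CHI3L1, SPP1 and CD44 only. The part of pigment epithelium in the results was not tested.

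Of the 10 genes, 6 were detected at increased levels in glaucoma when all probe sets were tested: GFAP, CHI3L1, SPP1, CD44, STAT3 and OSMR. In that fit 3.69% of all probe sets were called higher, and the share was not counted by gene. No member gene or probe set was called lower. The largest differences were those of SPP1 (15.4-fold), CHI3L1 (13.0-fold) and GFAP (5.49-fold). NES, VIM, SOCS3 and LCN2 did not pass the test. The median difference over the 10 genes was 1.02 on the log2 scale, against 0.02 over all probe sets.

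By probe set, 12 of 20 were called higher, where 3.69% of all probe sets were. In 14 of the 20, every glaucomatous retina lay above every healthy retina, which held for 4.27% of all probe sets. Of the 20 probe sets, 13 were expressed, and these belonged to 6 genes. Of the 13, 11 were called higher (7.58% of all expressed probe sets), 9 were called and at least 2-fold higher (2.95%), and 12 showed no overlap between the groups (6.82%). On the level of genes, 5 of the 6 expressed genes were called higher, against 8.04% of the 7900 expressed genes, while 8.65% of those were called lower. The expressed probe sets are not an even sample of the 20, because 5 of them passed the minimum only through glaucomatous retinas. The exact Wilcoxon rank sum test gave none of these calls: 5 against 5 retinas cannot go below an unadjusted p of 0.00794, which came to 0.0534 after adjustment. At an unadjusted p under 0.05 that test held for all 6 expressed genes and for 2171 of the 18416 expressed probe sets in the higher direction.

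**Figure D1:**
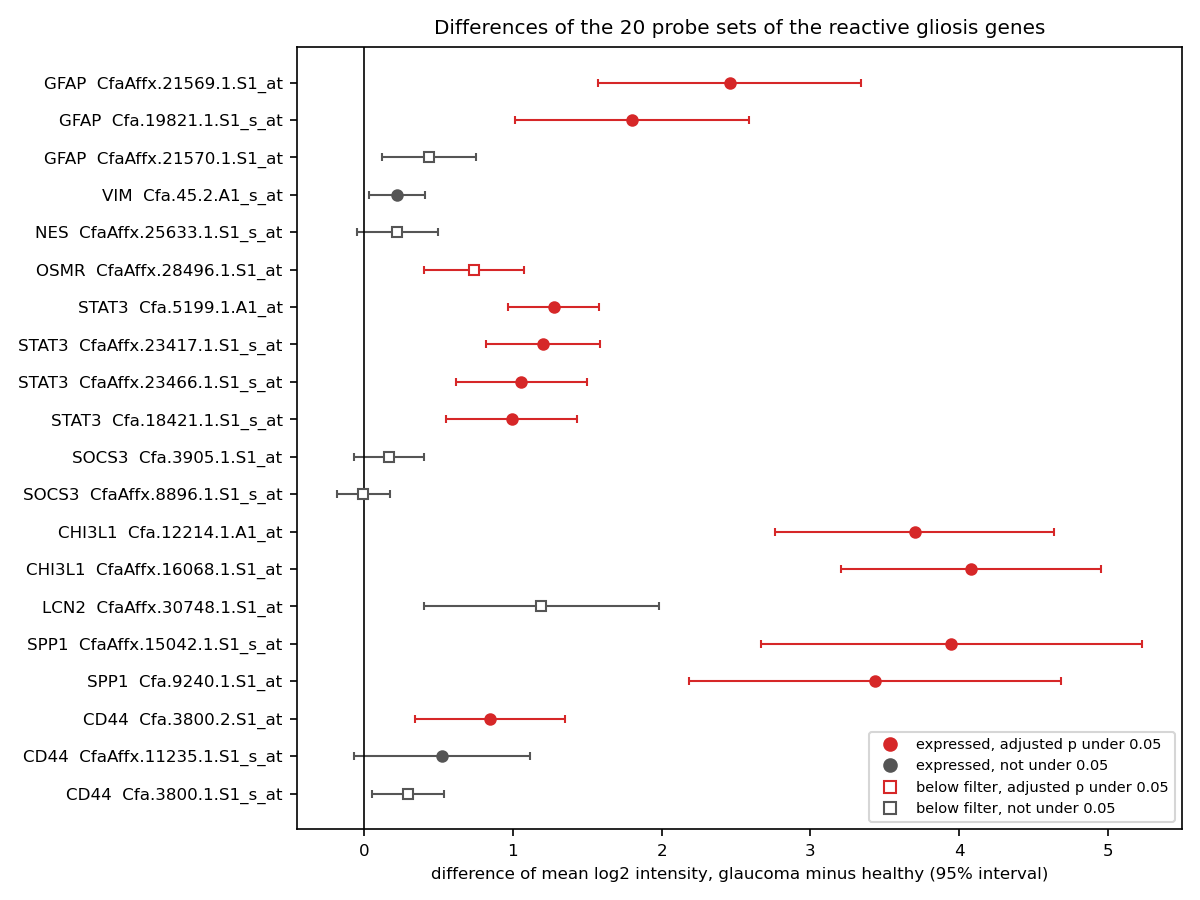
Difference of mean log2 intensity between 5 glaucomatous and 5 healthy retinas for each of the 20 probe sets, with its 95% interval from limma (circles, expressed; open squares, below the expression minimum and fitted with all probe sets; red, adjusted p under 0.05). Both CHI3L1 and both SPP1 probe sets lie above 3, the 4 STAT3 probe sets between 0.99 and 1.27, and the SOCS3 probe sets at 0.17 and 0.

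GFAP, the glial intermediate filament protein, was below the expression minimum in all 5 healthy retinas and above it in 4 of 5 glaucomatous retinas. On probe set CfaAffx.21569.1.S1_at its log2 levels were 9.31 and 8.77 in the 5- and 14-year-old Shiba Inus, 6.88 and 8.49 in the 5- and 7-year-old Basset Hounds, and 7.36 in the Dalmatian. The healthy Beagles lay at 5.89, 5.63, 5.59, 5.44 and 5.96. Both Shiba Inus and the older Basset Hound were high, the younger Basset Hound was lowest, and the groups did not overlap. The difference was 2.46 (SE 0.40, adjusted p = 0.00228 from limma, n = 5 each), and the glaucomatous retinas varied far more (SD 1.01) than the healthy ones (SD 0.22). A second probe set, Cfa.19821.1.S1_s_at, gave the dogs in the same order and a difference of 1.80 (adjusted p = 0.00639 from limma). That second call was lost with age as a covariate (1.56, adjusted p = 0.0618 from limma) and with the 3' to 5' ratio of 1 control series (1.59, adjusted p = 0.081 from limma). The third, CfaAffx.21570.1.S1_at, stayed at or below 5.63 in all 10 retinas, its groups overlapped, and its difference of 0.44 did not pass (adjusted p = 0.0954 from limma over all probe sets). Without the 5-year-old Shiba Inu and healthy replicate 4, the GFAP difference was 2.10 (adjusted p = 0.00649 from limma). In bulk tissue such as this, more cells of a type and more RNA per cell cannot be told apart, nor can fewer cells and less RNA per cell.

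VIM, which encodes vimentin, a filament protein that Müller glia carry at all times, differed far less. Its log2 levels were 13.97 and 13.94 in the Shiba Inus, 13.86 and 13.89 in the Basset Hounds and 13.97 in the Dalmatian, against 13.82, 13.68, 13.62, 13.80 and 13.61 in the Beagles. Every glaucomatous retina lay above every healthy one, by a gap of 0.04. In mean level this probe set lay at percentile 99.9 of all probe sets, and the part of signal saturation in its difference was not tested. The difference of 0.22 (SE 0.09, 95% interval 0.03 to 0.41) did not pass after adjustment (adjusted p = 0.103 from limma). It passed when limma's trend and robust options were used (adjusted p = 0.0248).

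NES, which encodes nestin, a filament protein of progenitors and of reactive glia, stayed below the expression minimum in all 10 retinas. Its log2 levels ran from 6.23 to 6.84 in glaucoma and from 6.06 to 6.46 in healthy retina. The ranges overlapped, and only the Dalmatian lay above all healthy dogs. The difference was 0.22 with a 95% interval of -0.05 to 0.49 (adjusted p = 0.34 from limma over all probe sets).

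Of 18 intermediate filament, lamin and filament-linker genes listed, 17 were on the array and 13 were expressed. Of these 13, 2 were called higher, 3 lower and 8 neither, with a median difference of 0.22. The higher genes were GFAP and DES, the muscle filament desmin, at 0.74 (adjusted p = 0.0491 from limma), with overlapping groups. DES did not pass in the fit of all probe sets (adjusted p = 0.0681 from limma). The identifier of the DES probe set carries the same cluster number as that of VIM, and the part that shared sequence had in its value was not tested. The neurofilament genes, which mark axons, all fell. NEFL dropped by 4.02 on the log2 scale (adjusted p = 0.00169 from limma), NEFM by 4.12 (adjusted p = 0.00194 from limma) and NEFH by 3.46 (adjusted p = 0.00294 from limma). Among those that did not pass, KRT18, an epithelial keratin also found in pigment epithelium, differed by 1.88 (adjusted p = 0.204 from limma), with 10.69 in healthy replicate 4 and 5.98 to 6.72 in the other Beagles. The neuronal filament INA lay at 6.37 to 8.11 in glaucoma and 8.19 to 8.69 in healthy retina, which did not pass either (adjusted p = 0.0732 from limma).

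**Figure D2:**
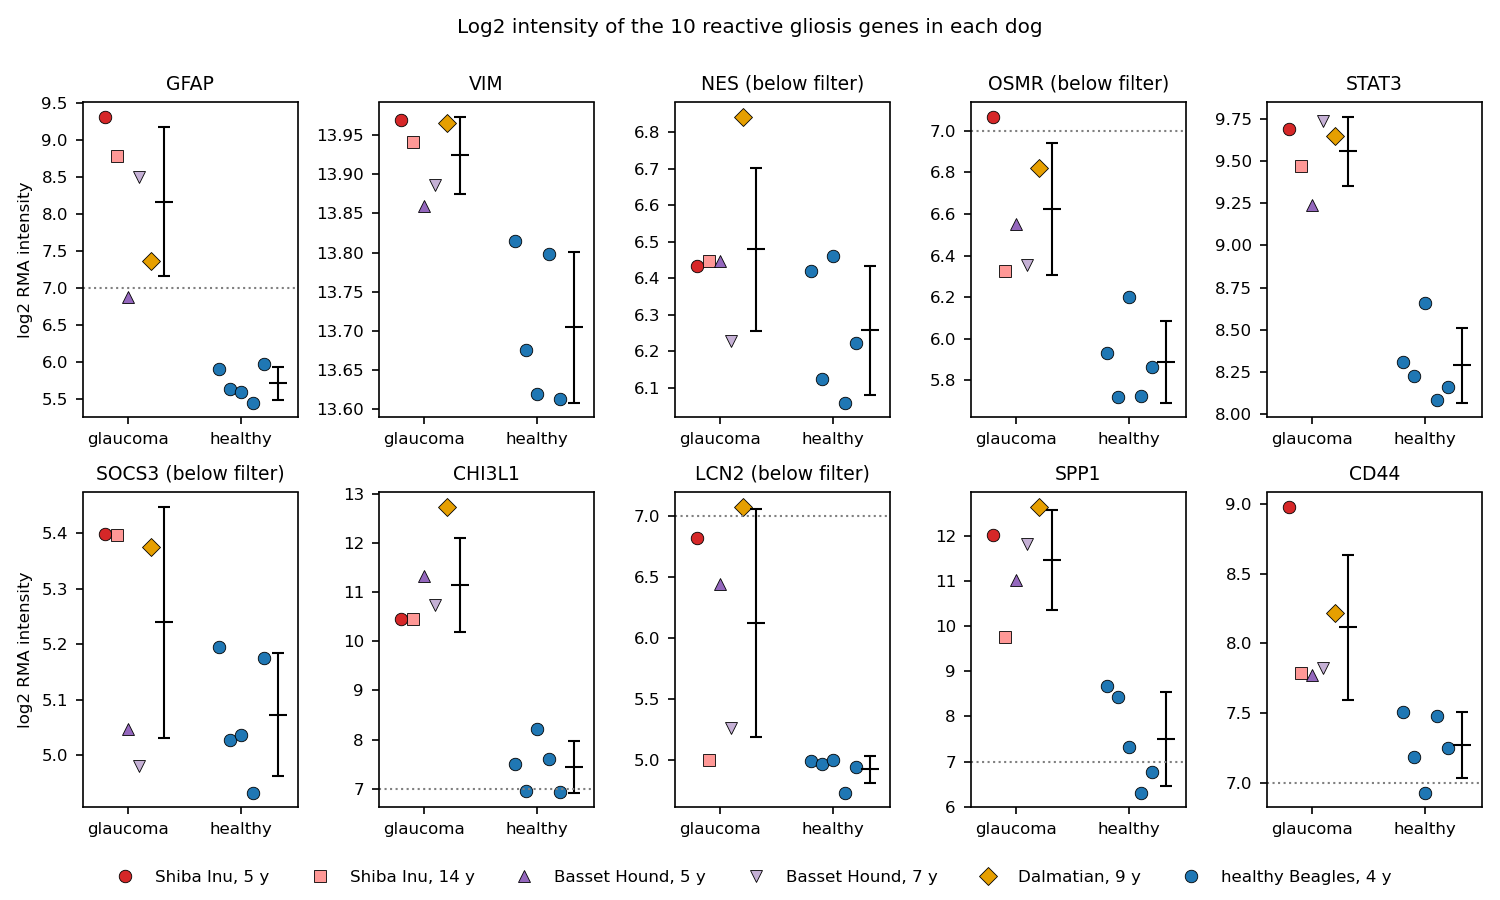
Log2 RMA intensity of each gene in each dog, for the probe set that represents the gene, with the mean and SD of each group of 5 at the right of its points and a dotted line at the expression minimum of 7 (the vertical scale differs between panels). The groups do not overlap for GFAP, VIM, OSMR, STAT3, CHI3L1, LCN2, SPP1 and CD44, although the gap is 0.04 for VIM and under 0.01 for LCN2.

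OSMR encodes the receptor subunit for oncostatin M, an interleukin-6 family cytokine. Its log2 levels were 7.07 and 6.32 in the Shiba Inus, 6.55 and 6.36 in the Basset Hounds and 6.82 in the Dalmatian. The Beagles lay at 5.93, 5.72, 6.20, 5.72 and 5.86. Only the 5-year-old Shiba Inu exceeded the expression minimum, yet the groups did not overlap. When all probe sets were fitted, OSMR rose by 0.74 (SE 0.15, adjusted p = 0.013 from limma, n = 5 each). With each dog left out in turn the adjusted p from limma ran from 0.0101 to 0.0414.

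STAT3, the transcription factor that these receptors activate, rose on all 4 of its probe sets. On Cfa.5199.1.A1_at its log2 levels were 9.69 and 9.47 in the Shiba Inus, 9.24 and 9.74 in the Basset Hounds and 9.65 in the Dalmatian, with 8.31, 8.22, 8.66, 8.08 and 8.16 in the Beagles. The lowest glaucomatous retina lay 0.58 above the highest healthy one. STAT3 rose by 1.27 (SE 0.14, adjusted p = 0.000202 from limma), which is 2.42-fold. The other probe sets differed by 1.20, 1.06 and 0.99, with adjusted p of 0.00106, 0.00517 and 0.00701 from limma, and none of the 4 had overlapping groups. Without the 5-year-old Shiba Inu and healthy replicate 4 the difference was 1.19 (adjusted p = 0.00141 from limma). On these probe sets the 5-year-old Shiba Inu had the highest level in 3 of 4. With the 3' to 5' ratio of 1 control series as a covariate, the probe sets at 1.06 and 0.99 lost their calls. They then differed by 0.75 and 0.84 (adjusted p = 0.074 and 0.0901 from limma), while the other STAT3 probe sets kept theirs.

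SOCS3, the feedback inhibitor of this route, was not called. Both of its probe sets lay far below the expression minimum. On Cfa.3905.1.S1_at the glaucomatous retinas ran from 4.98 to 5.40 and the healthy ones from 4.93 to 5.20, with overlap. The difference was 0.17 with a 95% interval of -0.07 to 0.40 (adjusted p = 0.424 from limma over all probe sets). On CfaAffx.8896.1.S1_s_at it was 0 to 2 decimals, with an interval of -0.18 to 0.17 (adjusted p = 0.985 from limma over all probe sets).

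The other genes of this route were examined from lists by role. Among ligands of the interleukin-6 family, 2 of 8 on the array were expressed and neither was called: CTF1, cardiotrophin, differed by 0.16 (adjusted p = 0.547 from limma) and IL11 by 0.01 (adjusted p = 0.962 from limma). Of the receptors, 3 of 8 were expressed and none was called, with differences of 0.23 for IL11RA (adjusted p = 0.289 from limma) and 0.22 for IL27RA (adjusted p = 0.218 from limma). OSMR was thus the 1 receptor of this list that passed, in the fit of all probe sets.

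Of 6 expressed kinases and STAT factors, 2 rose and 0 fell. Besides STAT3 this was JAK2, a receptor-bound kinase that phosphorylates STAT3, at 0.45 (adjusted p = 0.0418 from limma). In the fit of all probe sets this probe set of JAK2 did not pass (adjusted p = 0.0507 from limma), while a second one did, at 0.71 (adjusted p = 0.0125 from limma). JAK1 differed by 0.24 (adjusted p = 0.0782 from limma) and STAT5A by 0.10 (adjusted p = 0.7 from limma). STAT2 differed by 0.05 on the probe set that stood for it (adjusted p = 0.83 from limma). Of its others, those at 0.62 and 0.84 passed (adjusted p = 0.00942 and 0.00506 from limma over all probe sets). Those at 0.42 and 0.06 did not (adjusted p = 0.114 and 0.831 from limma over all probe sets). Of 8 expressed inhibitors of the route, 1 rose. This was PTPN6, the phosphatase SHP-1, at 0.87 (adjusted p = 0.00595 from limma), a gene best known from blood-derived cells. PTPN6 passed the expression minimum only through glaucomatous retinas. It was called in the fit of all probe sets as well (adjusted p = 0.00744 from limma). In the 5-year-old Shiba Inu PTPN6 stood at 7.88 and in the other glaucomatous retinas at 6.93 to 7.09. SOCS6 differed by 0.69 (adjusted p = 0.132 from limma) and PIAS1 by -0.40 (adjusted p = 0.132 from limma).

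Of 12 expressed genes known as STAT3 targets, 5 rose, 0 fell and 7 did not pass. Of the 12, 2 passed the expression minimum only through glaucomatous retinas. Over all 19 on the array 5 were called as well, with a median difference of 0.56 against 0.02 over all probe sets. FGG, the gamma chain of fibrinogen, rose by 3.05 (adjusted p = 4.43e-05 from limma), with every glaucomatous retina between 11.75 and 12.35 and every healthy one between 8.46 and 9.71. SERPINA3, a protease inhibitor of the acute phase, rose by 2.14 (adjusted p = 0.000235 from limma). TIMP1, an inhibitor of matrix metalloproteinases, rose by 1.88 (adjusted p = 0.00359 from limma). The survival gene MCL1 rose by 0.85 (adjusted p = 0.0107 from limma) and the AP-1 gene JUNB by 0.67 (adjusted p = 0.024 from limma). FOS, an early response gene, differed by 1.45 (adjusted p = 0.0749 from limma) and the adhesion molecule ICAM1 by 1.16 (adjusted p = 0.0584 from limma). Several of these genes are also made by immune cells or respond to other pathways.

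**Figure D3:**
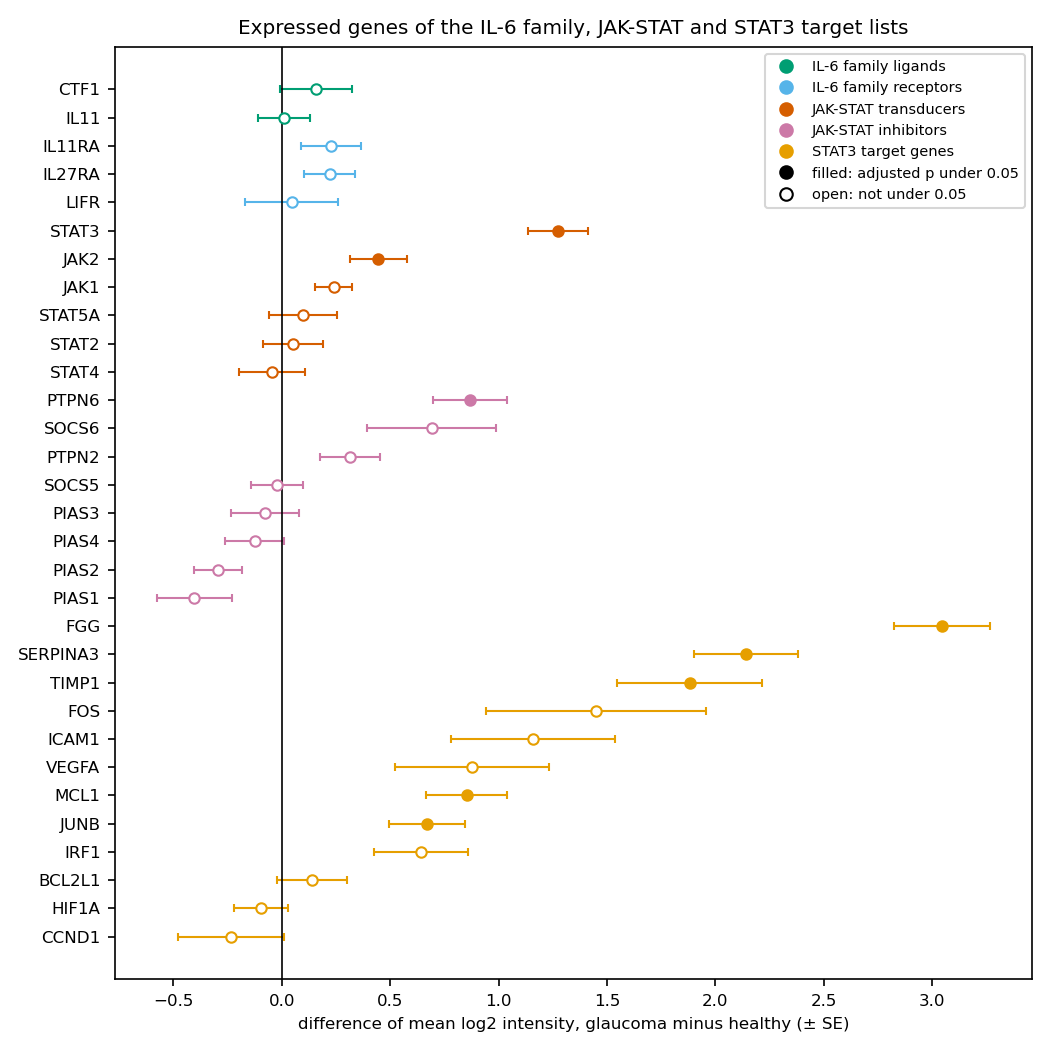
Difference of mean log2 intensity between glaucomatous and healthy retina, with its SE from limma, for the expressed genes of the interleukin-6 family and JAK-STAT lists and of the STAT3 target list (filled points, adjusted p under 0.05). Each gene is shown by the probe set that stands for it. No ligand or receptor passed, STAT3 and JAK2 passed among the transducers, PTPN6 among the inhibitors, and FGG, SERPINA3, TIMP1, MCL1 and JUNB among the targets.

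CHI3L1 encodes a secreted chitinase-like glycoprotein, known from reactive astrocytes and from macrophages. On Cfa.12214.1.A1_at its log2 levels were 10.45 and 10.46 in the Shiba Inus, 11.34 and 10.73 in the Basset Hounds and 12.73 in the Dalmatian. The Beagles lay at 7.50, 6.95, 8.21, 7.61 and 6.93. The Dalmatian was highest, both Shiba Inus were lowest, and a gap of 2.24 separated the groups. CHI3L1 rose by 3.70 on this probe set, and by 4.08 on CfaAffx.16068.1.S1_at (SE 0.40, adjusted p = 0.000121 from limma), where all healthy retinas were below the expression minimum. Without the 5-year-old Shiba Inu and healthy replicate 4 the differences were 3.91 and 4.35 (adjusted p = 0.0011 and 0.000455 from limma).

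LCN2, lipocalin 2, is a secreted iron-siderophore carrier made by reactive glia and by neutrophils. Its log2 levels were 6.82 and 5.00 in the Shiba Inus, 6.44 and 5.26 in the Basset Hounds and 7.07 in the Dalmatian, against 4.99, 4.97, 5.00, 4.73 and 4.95 in the Beagles. The Dalmatian and both dogs aged 5 years stood clear of the healthy dogs, while the 14-year-old Shiba Inu lay 0.004 above the highest Beagle. The difference of 1.19 (SE 0.36, 95% interval 0.40 to 1.98) did not pass (adjusted p = 0.0677 from limma over all probe sets). It passed with age as a covariate, at 1.76 (adjusted p = 0.0364 from limma), and without the 14-year-old Shiba Inu, at 1.47 (adjusted p = 0.0143 from limma), or without the 7-year-old Basset Hound, at 1.41 (adjusted p = 0.0365 from limma). All healthy dogs had the same age, so the slope for age rests on the glaucomatous dogs. None of the 6 neutrophil markers on the array was expressed, MPO, ELANE and CSF3R among them, and their summed intensity was 333 to 405 in glaucoma and 336 to 394 in healthy retina.

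Of 5 expressed partners of lipocalin 2 and of chitinase-like proteins, 1 rose. LGALS3, galectin 3, a carbohydrate-binding protein of macrophages and glia, rose by 1.44 (adjusted p = 0.0026 from limma). MMP9, the gelatinase that lipocalin 2 binds, differed by -0.80 (adjusted p = 0.194 from limma), with 6.35 in the 5-year-old Shiba Inu and 7.83 to 8.93 in the other glaucomatous retinas. TMEM219, a receptor component for CHI3L1, differed by 0.40 (adjusted p = 0.0924 from limma).

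SPP1 encodes osteopontin, a secreted phosphoprotein that binds integrins and CD44. On CfaAffx.15042.1.S1_s_at its log2 levels were 12.02 and 9.77 in the Shiba Inus, 11.01 and 11.82 in the Basset Hounds and 12.63 in the Dalmatian, against 8.68, 8.44, 7.33, 6.31 and 6.77 in the Beagles. The Dalmatian was highest and the 14-year-old Shiba Inu lowest among the glaucomatous retinas, and the healthy dogs themselves varied widely (SD 1.03). The gap between the groups was 1.09. SPP1 rose by 3.95 on this probe set and by 3.44 on Cfa.9240.1.S1_at (SE 0.57, adjusted p = 0.00241 from limma), which ordered the glaucomatous dogs in the same way. Without the 5-year-old Shiba Inu and healthy replicate 4 the differences were 3.51 and 3.02 (adjusted p = 0.00567 and 0.0111 from limma).

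CD44, a receptor for hyaluronan and osteopontin that reactive Müller glia and leukocytes carry, rose on 1 of its 3 probe sets. On Cfa.3800.2.S1_at its log2 levels were 8.98 and 7.78 in the Shiba Inus, 7.77 and 7.82 in the Basset Hounds and 8.22 in the Dalmatian, against 7.51, 7.19, 6.93, 7.48 and 7.25 in the Beagles. The 5-year-old Shiba Inu stood highest, and the groups did not overlap. The difference was 0.84 (SE 0.23, adjusted p = 0.0288 from limma), and 0.68 without this dog and healthy replicate 4 (adjusted p = 0.0194 from limma). On CfaAffx.11235.1.S1_s_at the levels were 8.06, 6.54, 6.83, 6.54 and 7.19 in the same order of glaucomatous dogs and 6.63, 6.64, 6.08, 6.56 and 6.63 in the Beagles. Here the 14-year-old Shiba Inu and the 7-year-old Basset Hound lay among the healthy dogs, and the difference of 0.52 did not pass (adjusted p = 0.205 from limma). The third probe set, Cfa.3800.1.S1_s_at, stayed below the expression minimum, with a difference of 0.29 (adjusted p = 0.141 from limma over all probe sets).

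Among the 5 expressed genes that were called, CD44 lost its call most often. It was lost without the Dalmatian (adjusted p = 0.0672 from limma) and without healthy replicate 2, 3 or 5 (adjusted p = 0.0703, 0.0666 and 0.0629 from limma). It was also lost when its probe sets were averaged (0.68, adjusted p = 0.0797 from limma) and with the 3' to 5' ratio of 1 set of controls in the model (0.78, adjusted p = 0.18 from limma). This was the series whose ratio was lower in glaucoma, at 0.94 ± 0.14 against 1.19 ± 0.22 (SD, n = 5 each).

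Of the receptors of osteopontin, 4 of 10 were expressed, and CD44 and ITGAV rose. ITGAV, the integrin alpha V chain, rose by 0.60 (adjusted p = 0.00581 from limma). The beta chains ITGB5 and ITGB1 both differed by 0.16 (adjusted p = 0.337 and 0.689 from limma). Of 5 expressed genes of hyaluronan metabolism and of the CD44 tail, 2 rose. TNFAIP6, which links proteins to hyaluronan during inflammation, rose by 1.45 (adjusted p = 0.00239 from limma), with 9.44 in the 14-year-old Shiba Inu and 10.62 to 10.80 in the other glaucomatous dogs. EZR, ezrin, which ties CD44 to actin, rose by 0.96 (adjusted p = 0.00227 from limma). HYAL2, a hyaluronidase, differed by 0.35 (adjusted p = 0.104 from limma) and RDX, radixin, by -0.33 (adjusted p = 0.261 from limma).

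Lists of genes that reactive astrocytes of rodents are known to share or to express after particular injuries were counted as well. Of the 13 shared genes, 5 are also among the 10 genes described above. Of the other expressed ones, 3 of 5 rose. These were TIMP1, SERPINA3 and CP, the copper-binding ferroxidase ceruloplasmin, which rose by 3.51 (adjusted p = 0.000179 from limma). CXCL10, an interferon-induced chemokine, differed by 2.11 (adjusted p = 0.0587 from limma), with levels from 6.37 to 10.97 in glaucoma. HSPB1, a small heat shock protein, differed by 0 to 2 decimals (adjusted p = 0.991 from limma).

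Of 6 expressed genes from the list tied to inflammatory injury, 4 rose, 1 fell and 1 did not pass. The complement component C3 rose by 4.62 (adjusted p = 1.78e-05 from limma), the complement inhibitor SERPING1 by 1.66 (adjusted p = 0.000121 from limma), the immunoproteasome subunit PSMB8 by 1.70 (adjusted p = 0.00169 from limma) and the matrix protein FBLN5 by 1.49 (adjusted p = 0.0135 from limma). AMIGO2, a neuronal adhesion protein, fell by 1.69 (adjusted p = 0.000724 from limma). Of these 6 genes, 1 passed the expression minimum only through healthy retinas. FKBP5, a glucocorticoid-induced immunophilin, differed by 0.43 (adjusted p = 0.379 from limma), with 9.26 in the 5-year-old Basset Hound and 7.58 to 7.86 in the other glaucomatous dogs. Of 3 expressed genes from the list tied to ischemic injury, 2 rose: CD14, a lipopolysaccharide co-receptor of macrophages, by 0.89 (adjusted p = 0.0107 from limma) and S100A10, an annexin partner, by 0.69 (adjusted p = 0.0198 from limma). Another S100A10 probe set passed at 0.81 (adjusted p = 0.0149 from limma over all probe sets). The rest, at 0.17 to 0.34, did not (smallest adjusted p = 0.296 from limma over all probe sets). SPHK1, sphingosine kinase, differed by 0.41 (adjusted p = 0.057 from limma). C3, SERPING1 and CD14 are also genes of microglia and macrophages.

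Cell type markers moved alongside these genes to different extents. Summed intensities below are over all markers of a type on the array, expressed or not. Of 13 expressed Müller glia markers, 6 rose and 0 fell. The summed intensity of all 14 on the array was 58740 to 79430 in glaucoma and 51480 to 59300 in healthy retina. Those that rose were AQP4 (1.81), ABCA8 (1.67), PDPN (1.51), SPON1 (1.38), SOX2 (0.83) and CLU (0.42), with AQP4 and ABCA8 below the expression minimum in all healthy dogs. Among those that did not pass, SLC1A3 and RLBP1 differed by 0.35 each and GLUL by -0.41 (adjusted p = 0.179, 0.605 and 0.16 from limma). Of 6 expressed astrocyte markers, 3 rose, GFAP among them, with sums of 3170 to 5944 against 2887 to 3850, and the sum of 5944 belonged to the 5-year-old Shiba Inu. All 12 expressed markers of microglia and macrophages rose, 3 of which passed the minimum only through glaucomatous retinas, with sums of 12790 to 28690 against 2755 to 4207. Over all 15 on the array, 13 were called higher, with a median difference of 2.08. ITGAM and PTPRC differed by 0.13 and 0.37 on the probe sets that stood for them (adjusted p = 0.65 and 0.174 from limma). Of the other PTPRC probe sets, that at 1.39 passed (adjusted p = 0.00257 from limma over all probe sets). That at 0.48 did not (adjusted p = 0.1345 from limma over all probe sets). The summed microglia and macrophage level was highest in the 5-year-old Shiba Inu and the Dalmatian. These dogs also had the highest VIM, SPP1, CD44, LCN2 and OSMR. Other pairs led for GFAP, NES, STAT3, SOCS3 and CHI3L1, and for CHI3L1 this Shiba Inu was lowest of the glaucomatous dogs. The part of microglia and macrophages in the levels of CHI3L1, SPP1, CD44, LCN2 and OSMR was not tested.

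Of 4 expressed markers of T, NK and B cells, CD2 and CD3E rose, both expressed only through glaucomatous retinas, and over all 12 on the array 3 were called higher. Those 12 summed to 790 to 1222 against 667 to 809. Of 9 expressed retinal ganglion cell markers, 6 fell and 1 was called higher, with sums of 7474 to 11990 against 18700 to 31730. The marker called higher was SNCG, whose probe sets disagreed, at 2.52 and -2.57 (adjusted p = 0.000256 and 0.00032 from limma over all probe sets). The sums include its probe set at 2.52, with a mean log2 level of 11.92 in glaucoma and 9.40 in healthy retina. Of 13 expressed pigment epithelium markers, only SERPINF1 was called higher, with a median difference of 0.89 and sums of 10040 to 61390 against 6162 to 40610. Of 4 expressed pericyte and fibroblast markers PDGFRB was called at 0.59 (adjusted p = 0.0385 from limma), a call lost over all probe sets (adjusted p = 0.0505 from limma), in which RGS5 fell by 1.04 (adjusted p = 0.0317 from limma). Among these 4 markers, 1 was expressed only through glaucomatous retinas. Of 3 expressed oligodendrocyte and myelin markers, MAL rose, which was below the expression minimum in all healthy dogs. None of 8 rod, 3 endothelial and 5 lens markers was called.

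**Figure D4:**
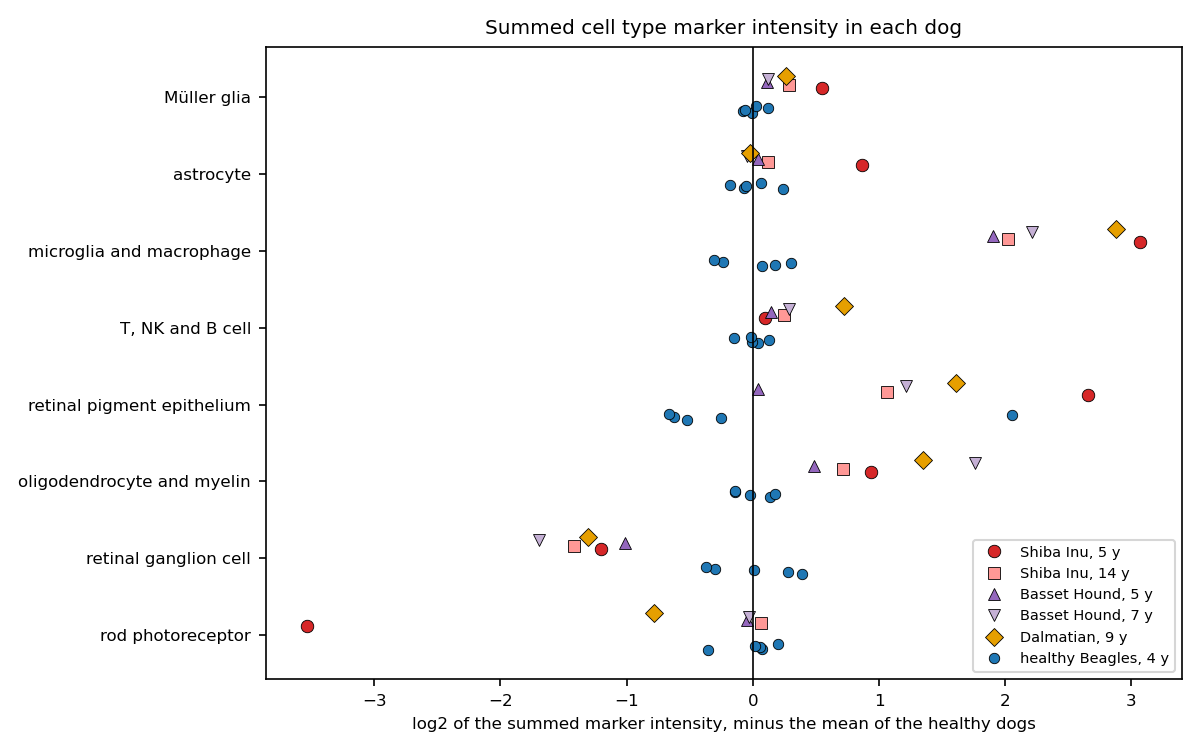
Log2 of the summed intensity of all markers on the array, expressed or not, for 8 cell types in each dog, minus the mean of the 5 healthy dogs (one point per dog). The microglia and macrophage sum lies 1.91 to 3.07 above the healthy mean in the glaucomatous retinas and the Müller glia sum 0.11 to 0.55 above it, while the 5-year-old Shiba Inu alone lies at -3.53 for rods.

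The glaucomatous dogs did not rank alike on all genes. Over the 10 genes, the median shift from the healthy mean was 1.56 and 0.48 in the 5- and 14-year-old Shiba Inus, 0.81 and 0.51 in the 5- and 7-year-old Basset Hounds and 1.16 in the Dalmatian. The younger Shiba Inu had the highest level of 5 genes, GFAP, VIM, CD44, SOCS3 and OSMR. Its lead was slight for VIM, at 13.9686 against 13.9656 in the Dalmatian, and for SOCS3, at 5.3995 against 5.3973 in the older Shiba Inu. This was also the retina with the rod sum of 5144, and the part of tissue composition in its ranks was not tested. The Dalmatian had the highest level of 4, NES, CHI3L1, SPP1 and LCN2, and the 7-year-old Basset Hound that of STAT3. GFAP and the secreted proteins ordered the dogs differently: the 14-year-old Shiba Inu was second for GFAP, with a shift of 3.07, and last for SPP1 and LCN2, with shifts of 2.26 and 0.08. The Dalmatian was next to last for GFAP, with 1.65, and first for CHI3L1, SPP1 and LCN2, with 5.29, 5.13 and 2.15. With 5 dogs of 3 breeds these orders are a description.

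**Figure D5:**
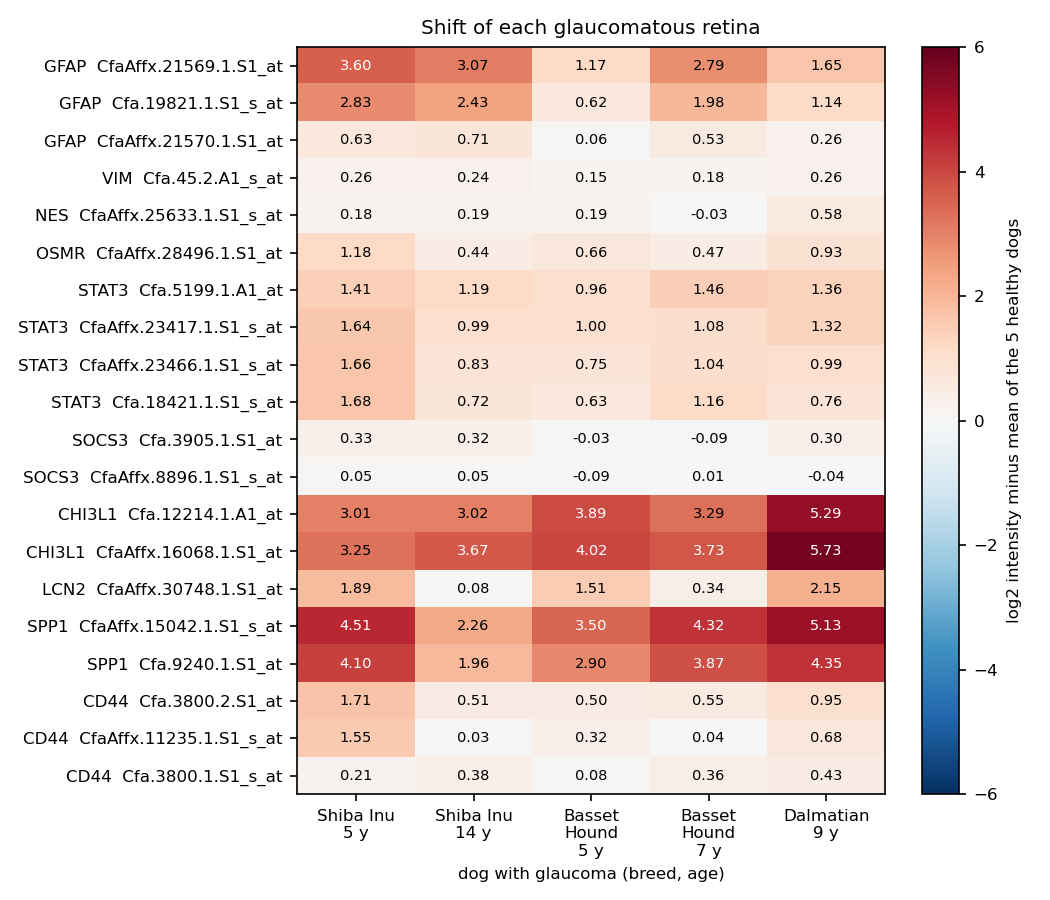
Shift of each glaucomatous retina from the mean of the 5 healthy retinas on the log2 scale, for each of the 20 probe sets (red, higher; blue, lower; printed values in log2 units). Both CHI3L1 probe sets shift by at least 3.01 in every dog, whereas those of GFAP range from 0.06 to 3.60 and that of LCN2 from 0.08 to 2.15.

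For GFAP, STAT3, CHI3L1 and SPP1, the expressed genes whose shifts from the healthy mean came closest over the 10 dogs were looked up. The measure was the mean absolute distance in log2 units between the shifts, and since the genes were chosen by it no test applies. The genes nearest to GFAP were DLA-64 (0.32), a dog major histocompatibility class I gene, APOE (0.38), the lipid carrier that Müller glia secrete, and HTR7 (0.40), a serotonin receptor. Those nearest to STAT3 were P3H2 (0.16), a collagen prolyl hydroxylase, SELPLG (0.16), the selectin ligand of leukocytes, and GNAI2 (0.17), an inhibitory G protein. CHI3L1 was approached by CSF1R (0.46), the growth factor receptor of macrophages and microglia, a probe set annotated as complement component C2 (0.49) and SMPDL3A (0.53), a phosphodiesterase. The study lists another probe set with this C2 annotation as complement factor B. SPP1 had the most distant neighbours, with C3 at 0.65, the lysosomal protease CTSC at 0.70 and the myelin gene MAL at 0.75.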

How the data were processed

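Retinal RNA of each dog was hybridized to 1 Affymetrix Canine Genome 2.0 array, and GEO's labels call every dog a biological replicate. RMA normalization was done by the authors, and the deposited intensities, on a linear scale, were used as they stood. Log2 values were taken here, 111 control probe sets were left out, and limma 3.58.1 under R 4.3.3 was used for the comparison (lmFit and eBayes, Benjamini-Hochberg adjustment over the 18416 expressed probe sets). Members below the expression minimum were taken from the same fit over all 42924 probe sets. Where a gene had several probe sets, that of highest mean log2 level stood for it. Gene names come from the platform annotation, which gives 29254 probe sets 1 symbol. Array levels of different probe sets were not compared with each other.

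The 10 genes and all gene lists were chosen with earlier results of these data known. From each list the 3 smallest adjusted p among the called genes and the 2 largest differences among the others could be named. DES, NEFH, MCL1, JUNB, PSMB8, FBLN5 and HSPB1, named to complete short counts, STAT2, and the marker genes named with values lie outside this rule and were chosen with their values known. All 3' to 5' control probe sets for actin and GAPDH were averaged, and each of their 2 naming series was tried alone. The alternatives were other filters, normalizations and tests, array weights, the replicate number as a block, age or the 3' to 5' ratio as covariates, breeds or single dogs left out, and other choices of probe set. The study's rank sum test was an alternative here, its SAM analysis was not run, and its PCR and protein data were not analysed here.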

Additional observations from a re-analysis of the deposited data

Results flagged for a closer look

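In a group of 5 dogs, a highest or lowest value was singled out when its gap to the nearest other dog exceeded 0.71 of the group's range, a test that chance alone passes in about 1 of 20 groups. It was applied to 184 groups, which cover the 20 probe sets, the summed marker levels and the list and marker genes whose values the report tests by name, STAT2 apart, and not every gene of the lists. Among the members, healthy replicate 3 lay apart at 6.08 on CD44 probe set CfaAffx.11235.1.S1_s_at, below the 6.56 to 6.64 of the other Beagles, and at 4.77 on SOCS3 probe set CfaAffx.8896.1.S1_s_at, above their 4.47 to 4.56. Healthy replicate 4 lay apart for LCN2 at 4.73, below 4.95 to 5.00. No glaucomatous dog lay apart in this way on any of the 20 probe sets.

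Among these list genes, the 5-year-old Shiba Inu lay apart for SERPING1 at 13.37 (others 12.68 to 12.84) and for PTPN6 at 7.88 (others 6.93 to 7.09). The 5-year-old Basset Hound lay apart for FKBP5 at 9.26 (others 7.58 to 7.86), the Dalmatian for SPHK1 at 9.17 (others 8.83 to 8.92) and the 14-year-old Shiba Inu for TNFAIP6 at 9.44 (others 10.62 to 10.80). Healthy replicate 4 lay apart for KRT18 at 10.69 (others 5.98 to 6.72) and for RLBP1, a gene of both Müller glia and pigment epithelium, at 13.09 (others 11.27 to 11.79).

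Among summed marker intensities, the 5-year-old Shiba Inu lay apart for astrocytes at 5944 (others 3170 to 3548). The Dalmatian lay apart for T, NK and B cells at 1222 (others 790 to 902) and for lens at 6165 (others 806 to 1355). Healthy replicate 4 lay apart for pigment epithelium at 40610 (others 6162 to 8215) and healthy replicate 3 for lens at 2637 (others 724 to 1108).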

How the results depend on the processing

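Of the 6 expressed genes, 5 were called in the main analysis, and no difference changed sign under any alternative run. The exact Wilcoxon rank sum test called 0 genes after adjustment, since the smallest adjusted p it could give was 0.0534. With 1 dog left out in turn, 4 to 5 genes were called. Counted by gene, GFAP, CHI3L1, SPP1 and STAT3 kept their calls under all other alternatives, with ranges of 1.87 to 2.78, 3.30 to 4.16, 3.51 to 4.64 and 1.13 to 1.37. GFAP could not be tested with the stricter minimum in 5 samples. CD44 (0.63 to 1.07) lost its call in 10 of 31 alternatives. Besides those given in the report, these were the methods' t-test after adjustment, the 2-fold minimum and the ratio of the other set of controls. VIM (0.19 to 0.29) gained a call in 3 of 31.

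The replicate numbers did not pair the dogs: the deviations of same-numbered dogs correlated at -0.24 to 0.07, and 0 of 5 correlated best with their own number. With the replicate number as a block, 5 genes were called again, while calls over all expressed probe sets went from 1396 higher and 1732 lower to 943 and 1114. Calls over all expressed probe sets moved by more than 1.5 times in some settings, to 2095 higher and 2811 lower with array weights, to 408 and 522 with the ratio of 1 set of controls (chosen after the data were seen), to 544 and 574 with the 2-fold minimum, to 2553 and 3179 with the unadjusted t-test of the methods, to 0 with the exact Wilcoxon test, to 886 lower with age as a covariate, and to 866 higher and 1122 lower without healthy replicate 2. OSMR, below the expression minimum, was followed only in the fits of all probe sets with a dog left out or a covariate added. Hybridization signal was low for NES, LCN2, SOCS3 and OSMR, and the intervals for NES and SOCS3 include 0.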
